A study of Mus musculus with 6 samples.

Results

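The genes described are 8 that encode the exocytosis machinery of the cytotoxic granule, the lysosome-like organelle in which CD8 T cells store perforin and granzymes. They were chosen by name for their place in granule maturation, docking, priming and fusion: Lyst, Lamp1, Rab27a, Unc13d, Stx11, Stxbp2, Vamp7 and Vamp8. The choice was made with earlier results of these data known. Of the 8, 7 were found among the 25655 Ensembl genes listed per library, and all 7 passed the filter on low values (at least 1 CPM in 3 or more of 6 libraries), as did 10590 genes in all. Vamp7 was matched to no row and is not analysed here.

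The cells compared were labelled Utx knockout (Utx KO, 3 biological replicates) and wild type (WT, 3 biological replicates). Both came from spleens of female mice of the strain C57BL/6 and were enriched as naive CD8 T cells, low in CD44 and high in CD62L. Both genotypes were activated with immobilized antibody to the T-cell receptor beta chain (3 µg/ml) and antibody to CD28 (1 µg/ml) plus interleukin 2 (10 ng/ml) for 2 days, and then kept in interleukin 2 at the same dose for 3 days, so that all libraries represent day 5. Utx, encoded by the X-linked gene Kdm6a, removes methyl groups from lysine 27 of histone H3. No source used here gives the part of the gene deleted, the cells in which it was deleted or the age of the mice. The labels call the replicates biological, but whether they were separate mice is not stated. The p-values then cover only the spread among these libraries, which may not be the spread among mice.

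When a cytotoxic T cell meets its target, granules move to the contact site, dock at the plasma membrane, are primed and fuse with it. Rab27a, a small GTPase on the granule surface, holds the granule at the membrane together with its effectors. Unc13d primes the docked granule, the syntaxin Stx11 pairs with partner proteins of the same fusogenic class (SNAREs) to drive fusion, and Stxbp2 chaperones Stx11. In humans, inherited loss of RAB27A, UNC13D, STX11, STXBP2 or LYST impairs granule release and leads to immune dysregulation.

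Each library was made from the 3' ends of polyadenylated RNA, so a transcript yields about 1 tag whatever its length and levels of different genes can be set side by side in CPM (counts scaled to the library's total over the listed genes). Whole reads could be recovered from these values, with totals of 1619085 to 2517655 in Utx KO and 1827703 to 2529113 in WT libraries. The 7 genes had between 17 and 355 reads per library. Kdm6a itself was at 27.8, 39.4 and 31.5 CPM in Utx KO and at 44.3, 49.3 and 53.6 CPM in WT libraries (limma adjusted p = 0.0123), lower in each Utx KO library but not absent, and a 3' tag outside the deleted part checks nothing. The call on Kdm6a was lost with DESeq2 (adjusted p = 0.0974) and without Utx KO replicate 1 (0.0554), WT replicate 2 (0.0528) or WT replicate 3 (0.0708). The 7 CD8 T-cell markers summed to 2241 to 2314 CPM in Utx KO and 2012 to 2135 CPM in WT libraries; Cd3d, Cd3e and Cd8b1 were called higher (limma adjusted p = 0.000224, 0.00850 and 0.0318) and Cd2 lower (0.00147). Of 35 markers of other cell types 21 had no read in any library, among them Cd4, Pax5, Ncr1, Lyz2, Itgam and Cpa3. The CD4 and regulatory T-cell list summed to 11.1 to 13.5 CPM in Utx KO and 11.5 to 17.5 CPM in WT libraries, nearly all of it Foxp3 and Zbtb7b, which had reads in every library. Summed markers were at 1.71 to 3.18 CPM in Utx KO and 3.83 to 4.15 CPM in WT libraries for NK cells, and at 0.571 to 1.85 CPM in Utx KO and 2.76 to 5.47 CPM in WT libraries for B cells. They were at 7.94 to 12.4 CPM in Utx KO and 7.11 to 8.76 CPM in WT libraries for myeloid cells, and at 2.28 to 3.09 CPM in Utx KO and 0 to 0.461 CPM in WT libraries for erythroid cells. The part of these in the results was not tested. In bulk RNA, fewer cells that express a gene and less RNA per cell cannot be told apart.

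Utx KO cells carried less RNA for Stx11, Lyst and Rab27a and more for Lamp1 than WT cells. Mean Stx11 fell by 55.3%, mean Lyst fell by 30.5% and mean Rab27a fell by 27.4%, while mean Lamp1 rose by 29.1%. Unc13d, Stxbp2 and Vamp8 did not pass the test. In the test across all genes (limma-trend on log2(CPM + 1), Benjamini-Hochberg adjusted p under 0.05), 4 of the 7 genes were called, 3 lower and 1 higher, where 10.8% of all 10590 tested genes were called (5.51% lower and 5.28% higher). DESeq2 called 2 of the 7, Stx11 and Lyst, both lower, where it called 5.27% of all genes with an adjusted p and 2.97% lower. edgeR called the same 4 as limma, where it called 12.5% of all genes (6.34% lower and 6.18% higher). The median log2 fold change was −0.21 over the 7 genes and 0.01 over all tested genes. As the genes were chosen with earlier results of these data known, their share of calls is no independent test.

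**Figure D1:**
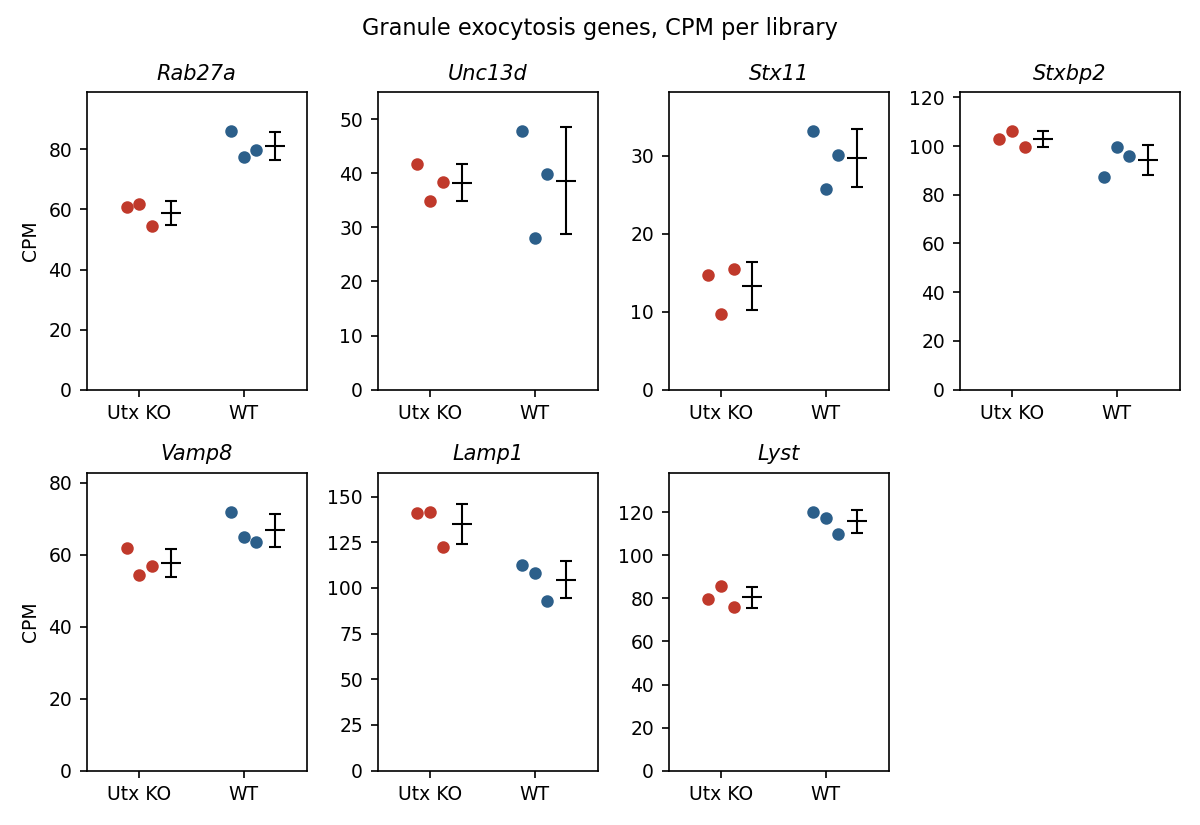
CPM (y axis, from 0) of the 7 measured granule exocytosis genes in each library, with Utx KO (red) left of WT (blue). Each point is a library and the black bar is the mean with its SD (n = 3); the groups do not overlap for Stx11, Lyst, Rab27a, Vamp8 and Lamp1, and overlap for Unc13d and Stxbp2.

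Of the maturation genes, Lyst fell. Lyst encodes a very large BEACH-domain protein that regulates the size of lysosomes and granules, and is the gene mutated in the beige mouse. Libraries of Utx KO replicates 1, 2 and 3 held 79.8, 85.7 and 76.0 CPM of it, against 120.2, 118 and 110.0 CPM in WT replicates 1, 2 and 3. The highest Utx KO library lay well below the lowest WT library. The difference was −0.52 ± 0.09 on the log2 scale (SE; adjusted p = 0.000473 with limma), or 80.5 ± 4.89 CPM in Utx KO and 116 ± 5.30 CPM in WT (SD, n = 3). The call held under all 17 alternative settings (adjusted p at most 0.00528). The gene lies on chromosome 13, 13590397 to 13778803 (GRCm38, plus strand), and no other annotated exon overlapped its own.

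Lamp1 went the other way. Its product, a heavily glycosylated protein of the lysosome and granule membrane also known as CD107a, appears on the cell surface after granule release and is used to detect it. For Utx KO replicates 1, 2 and 3, Lamp1 measured 141, 142 and 122 CPM, against 112, 108 and 93.0 CPM in WT replicates 1, 2 and 3. All Utx KO libraries were above all WT libraries, although Utx KO replicate 3 and WT replicate 1 lay close together. The difference was 0.37 ± 0.10 on the log2 scale (SE; adjusted p = 0.0120 with limma). The call was lost with DESeq2 (adjusted p = 0.0804), without Utx KO replicate 2 (0.0688) and without WT replicate 3 (0.0878), and held under the other 14 alternatives. Lamp1 (chromosome 8, 13159161 to 13175338, plus strand) shares exon positions with Grtp1 on the opposite strand, which was at 3.43 to 6.18 CPM in Utx KO and 2.30 to 4.38 CPM in WT libraries.

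Of the docking genes, Rab27a fell. Libraries of Utx KO replicates 1, 2 and 3 held 60.8, 61.7 and 54.4 CPM of it, against 86.2, 77.4 and 79.9 CPM in WT replicates 1, 2 and 3. The groups were apart, with 61.7 CPM the highest Utx KO and 77.4 CPM the lowest WT value. The difference was −0.46 ± 0.11 on the log2 scale (SE; adjusted p = 0.00637 with limma). Of the 17 alternatives, DESeq2 alone ended the call (adjusted p = 0.0643); the adjusted p reached 0.0493 without WT replicate 1. Rab27a lies on chromosome 9, 73044854 to 73097629 (plus strand), and shares exon positions with the gene model Gm27186 on the same strand.

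Among the priming and fusion genes, Stx11 fell and its chaperone did not pass. Stx11, on chromosome 10, 12938209 to 12964298 (minus strand), had 37, 17 and 25 reads in Utx KO replicates 1, 2 and 3, against 84, 56 and 55 reads in WT replicates 1, 2 and 3. In CPM these were 14.7, 9.71 and 15.4 in Utx KO and 33.2, 25.8 and 30.1 in WT. All Utx KO libraries lay below all WT libraries. Exact 95% Poisson intervals, which cover counting error only, were 10.3 to 20.3, 5.66 to 15.5 and 9.99 to 22.8 CPM in Utx KO and 26.5 to 41.1, 19.5 to 33.5 and 22.7 to 39.2 CPM in WT replicates 1, 2 and 3. The interval of Utx KO replicate 1 overlapped that of WT replicate 2, and the interval of Utx KO replicate 3 overlapped those of WT replicates 2 and 3. The difference was −1.12 ± 0.21 on the log2 scale (SE; adjusted p = 0.000498 with limma), and the call held under all 17 alternatives, with values from −1.24 to −0.93.

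Stxbp2, a Sec1/Munc18-family protein that binds Stx11, was at 103, 106 and 99.4 CPM in Utx KO and at 87.4, 99.5 and 95.7 CPM in WT replicates 1, 2 and 3. The groups met at the edge, and the log2 difference was 0.13 with a 95% interval of −0.07 to 0.32 (adjusted p = 0.473 with limma). Within each library, Stx11 amounted to 0.143, 0.0914 and 0.155 of the Stxbp2 level in Utx KO replicates 1, 2 and 3, against 0.380, 0.259 and 0.314 in WT replicates 1, 2 and 3. The ratio was lower in every Utx KO library (two-sided exact permutation p = 0.10, the smallest that 3 against 3 libraries allow).

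Unc13d, the priming factor, had the widest spread among WT libraries, relative to its mean, of the 7 genes. It was at 41.7, 34.8 and 38.3 CPM in Utx KO, against 47.8, 28.1 and 39.9 CPM in WT replicates 1, 2 and 3. All Utx KO values lay inside the WT range. The log2 difference was 0.02 with a 95% interval of −0.33 to 0.36 (adjusted p = 0.973 with limma). Its sign turned under 5 alternatives, and in linear CPM the means were 38.3 ± 3.43 in Utx KO and 38.6 ± 9.93 in WT (SD, n = 3). Vamp8, a SNARE of endosomes and secretory granules, was at 62.0, 54.3 and 56.8 CPM in Utx KO, against 72.0, 65.0 and 63.5 CPM in WT. These groups did not overlap, yet the test did not pass: the log2 difference was −0.21 with a 95% interval of −0.44 to 0.03 (adjusted p = 0.293 with limma). Groups did not overlap for 5 of the 7 genes, against 26.5% of all tested genes. That count too comes from genes chosen with earlier results known.

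The order of the levels differed between the genotypes. In Utx KO cells Lamp1 (135 ± 11.0 CPM, SD, n = 3) stood above Stxbp2 (103 ± 3.40) and Stxbp2 above Lyst, with no overlap between the library ranges of these neighbours. In WT cells Lyst came first, then Lamp1 (105 ± 10.2 CPM) and Stxbp2 (94.2 ± 6.22 CPM), and the ranges of each of these neighbours overlapped. Below them the order was the same in both, with Rab27a, Vamp8, Unc13d and Stx11 last. Rab27a and Vamp8 overlapped in Utx KO libraries (58.9 ± 3.997 and 57.7 ± 3.92 CPM) and not in WT libraries (81.2 ± 4.53 and 66.8 ± 4.53 CPM), whereas the ranges of Unc13d and Stx11 overlapped in WT libraries only. Within each WT library Unc13d was above Stx11 and Lyst above Lamp1. The order of means did not hold within WT replicate 3 for Lamp1 and Stxbp2, nor within Utx KO replicates 1 and 3 for Rab27a and Vamp8. Lyst was at 0.566, 0.605 and 0.621 of the Lamp1 level in Utx KO libraries, against 1.07, 1.09 and 1.18 in WT libraries. The 7 genes together made up 503, 494 and 463 CPM in Utx KO and 559, 522 and 512 CPM in WT replicates 1, 2 and 3.

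The stretches before the start sites of the genes that changed are shown to set Lamp1, which rose, beside the 3 genes that fell. They are the 250 bases upstream of the RefSeq start (GRCm38.p6), each read 5' to 3' on the gene's own strand. Capitals mark CACGTG, the palindromic E-box core bound by TFEB-type lysosomal transcription factors, and GGGCGG or its reverse complement CCGCCC, the GC box. The windows are chr8:13158911-13159160 (plus strand) for Lamp1, chr10:12964260-12964509 (minus) for Stx11, chr13:13590159-13590408 (plus) for Lyst and chr9:73044560-73044809 (plus) for the first of 2 listed Rab27a starts.
Lamp1: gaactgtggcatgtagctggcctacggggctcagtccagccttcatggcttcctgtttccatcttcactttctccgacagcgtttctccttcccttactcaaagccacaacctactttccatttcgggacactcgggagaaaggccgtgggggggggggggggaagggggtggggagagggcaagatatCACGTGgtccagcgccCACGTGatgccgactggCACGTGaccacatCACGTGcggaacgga
Stx11: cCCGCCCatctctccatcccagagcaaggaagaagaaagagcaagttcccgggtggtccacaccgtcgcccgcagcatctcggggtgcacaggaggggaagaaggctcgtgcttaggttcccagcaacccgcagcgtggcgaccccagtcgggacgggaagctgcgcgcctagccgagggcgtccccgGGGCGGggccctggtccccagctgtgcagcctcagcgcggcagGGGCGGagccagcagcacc
Lyst: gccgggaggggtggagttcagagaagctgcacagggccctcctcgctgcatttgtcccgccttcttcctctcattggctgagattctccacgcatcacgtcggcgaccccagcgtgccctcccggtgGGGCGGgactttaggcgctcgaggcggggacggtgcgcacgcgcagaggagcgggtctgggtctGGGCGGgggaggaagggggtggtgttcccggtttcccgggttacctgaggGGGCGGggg
Rab27a: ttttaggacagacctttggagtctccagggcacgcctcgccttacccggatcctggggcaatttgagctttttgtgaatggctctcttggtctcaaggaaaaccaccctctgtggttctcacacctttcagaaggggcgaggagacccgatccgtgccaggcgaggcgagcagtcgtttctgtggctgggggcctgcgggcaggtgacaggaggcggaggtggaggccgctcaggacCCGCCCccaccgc

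Lamp1 held 4 copies of CACGTG, which began 61, 45, 28 and 15 bases before its start. Windows with at least 4 copies numbered 7 of 32851 (0.0213%), and 6.02% of windows held at least 1. The bound of 4 was taken from Lamp1 itself and the motifs were chosen after the promoters had been searched, so this rarity is no test. Stx11 and Lyst held none, and neither did the first Rab27a window, whereas the second (start at 73064148) held 1 copy, 246 bases before it. GGGCGG was found on either strand 3 times in Stx11, 3 times in Lyst, 1 time in the first Rab27a window and not in Lamp1. At least 1 match was in 32.7% of all windows. CG pairs numbered 21 in the Stx11 window and 22 in Lyst, against 14 each in Lamp1 and the first Rab27a window. The median over all windows was 6 CG pairs, and the match counts were not corrected for this content. Among the genes that did not pass, Stxbp2 had 1 CACGTG and no GC box, and Vamp8 had neither. RUNX (TGTGGT), T-box (GGTGTG), ETS (GGAAGT) and AP-1 (TGANTCA) cores, searched on both strands, are in 14.0%, 16.3%, 19.7% and 6.75% of windows. TGTGGT had 1 match in Lamp1 and 1 in the first Rab27a window, GGTGTG 1 in Stx11 and 1 in the first Rab27a window, GGAAGT 1 in the second Rab27a window, and TGANTCA none in the 7 windows of these genes. No window of these genes held both CACGTG and GGGCGG, while TGTGGT and GGTGTG can share letters. A match is a string of letters and no evidence of binding. Of the genes for TFEB-type factors, the 2 that passed the filter on low values, Tfeb and Tfe3, were not called with limma. Their log2 fold changes were from 0.03 to 0.37. Whether such factors had a part in the Lamp1 level was not tested.

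Around Rab27a, its paralog and some of its effectors fell too. The synaptotagmin-like proteins Sytl1, Sytl2 and Sytl3 bind active Rab27 and link granules to the plasma membrane. For Utx KO replicates 1, 2 and 3, Sytl2 measured 3.57, 2.86 and 3.09 CPM, against 19.0, 21.2 and 15.9 CPM in WT replicates 1, 2 and 3. Sytl3 was at 9.53, 10.3 and 11.7 CPM in Utx KO, against 27.7, 27.6 and 31.2 CPM in WT. Their groups were far apart, with log2 differences of −2.23 ± 0.27 for Sytl2 (SE; adjusted p = 2.94e-06 with limma) and −1.38 ± 0.20 for Sytl3 (2.83e-05). Both calls held under all 17 alternatives, although Sytl2 rested on 19 reads in all in Utx KO and 123 in WT. Sytl1 showed no such gap, at 16.7 ± 1.73 CPM in Utx KO and 16.5 ± 1.05 CPM in WT (SD, n = 3; 95% interval of the log2 fold change −0.41 to 0.43).

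Rab27b, the paralog of Rab27a, was low in both genotypes, at 2.38, 4.57 and 3.09 CPM in Utx KO against 7.91, 8.29 and 13.7 CPM in WT. It fell by 1.33 on the log2 scale (limma adjusted p = 0.00774), a call lost with DESeq2 (adjusted p = 0.0741) and without WT replicate 3 (0.0735). Madd, the exchange factor that loads GTP onto Rab3 and Rab27, fell to 35.6 ± 2.67 CPM in Utx KO, against 49.0 ± 3.15 CPM in WT (limma adjusted p = 0.0294), a call lost with DESeq2 (0.221) and without Utx KO replicate 1 or 2 or WT replicate 2 or 3 (0.0720 to 0.111). Of the 14 tested genes in the list of Rab27 GTPases, effectors and regulators, 4 were called lower and 0 higher (median log2 fold change −0.16). Over all tested genes 5.51% were called lower and 5.28% higher, and the list was chosen with earlier results known. The other 10 genes of the list include the enzymes that attach lipid to Rab proteins, Rabggta and Rabggtb, and the escort proteins Chm and Chml. Sytl4, Sytl5, Mlph and Myrip had no read in any library. Sytl3 meets exon sequence of Ezr on the opposite strand, and Ezr was at 302 to 320 CPM in Utx KO and 304 to 333 CPM in WT libraries.

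**Figure D2:**
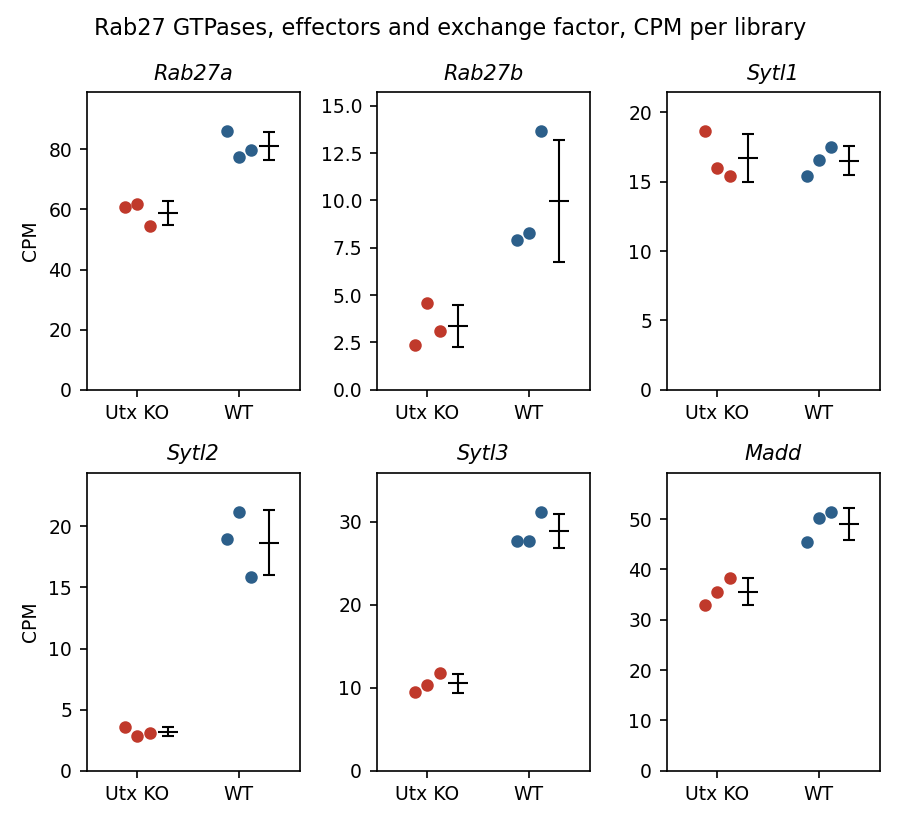
CPM (y axis, from 0) of Rab27a, its paralog Rab27b, the effectors Sytl1 to Sytl3 and the exchange factor Madd in each library, with Utx KO (red) left of WT (blue) and the mean with its SD in black (n = 3). The groups overlap for Sytl1 and for none of the other 5 genes.

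The BEACH-domain relatives of Lyst gave 2 falls and 0 rises among 5 tested genes (median log2 fold change −0.43). Of all tested genes 5.51% were called lower and 5.28% higher (median 0.01), and the difference from this small list was not tested. Nbeal2, which is needed for the granules of platelets, was at 20.7, 25.1 and 25.3 CPM in Utx KO, against 45.1, 41.0 and 44.9 CPM in WT replicates 1, 2 and 3. All WT libraries were above all Utx KO libraries (difference −0.86 ± 0.15 on the log2 scale, SE; adjusted p = 0.000371 with limma), and the call held under all 17 alternatives. Nsmaf fell to 37.4 ± 4.88 CPM in Utx KO, against 50.5 ± 3.57 CPM in WT (limma adjusted p = 0.0477), and lost its call under 8 of 17 alternatives, among them leaving out any library but Utx KO replicate 2 (0.0592 to 0.193). It shares exon positions with Sdcbp on the opposite strand, at 129 to 149 CPM in Utx KO and 146 to 150.5 CPM in WT libraries.

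The other fusion proteins gave few calls. Where 10.8% of all tested genes were called, the 32 tested SNAREs and recycling factors gave 1 call higher and 0 lower. This was Vamp4, a SNARE of the trans-Golgi network, at 27.8, 26.8 and 25.3 CPM in Utx KO, against 16.6, 18.4 and 18.6 CPM in WT (log2 fold change 0.55, limma adjusted p = 0.0472), a call that 11 of 17 alternatives ended, leaving out any of the 6 libraries included (0.0728 to 0.150). The plasma membrane SNAREs Snap23 and Stx4a, the endosomal SNAREs Stx7, Stx8 and Vti1b, and Vamp2 and Vamp3 had log2 fold changes between −0.11 and 0.15. Stx3 was at 1.497 ± 0.837 CPM in Utx KO and 3.79 ± 0.454 CPM in WT (SD, n = 3), where 9 and 25 reads in all stand behind the means and the test did not pass (limma adjusted p = 0.125). None of the 10 other Sec1/Munc18-type and syntaxin-binding proteins tested was called at the threshold with limma, and 0 had an unadjusted p under 0.05. Stxbp3 had a log2 fold change of 0.46, and 18.2% of its 3' end pieces recur in the pseudogene Stxbp3-ps.

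Of the Munc13-type factors only Unc13a and Baiap3 could be tested, and Unc13b had no read in any library. Unc13a was at 12.5 ± 6.31 CPM in Utx KO and 7.69 ± 2.29 CPM in WT (SD, n = 3; limma adjusted p = 0.278). It shares exon positions with Colgalt1 on the opposite strand, at 79.4 to 82.6 CPM in Utx KO and 61.3 to 69.6 CPM in WT libraries. Baiap3 fell to 2.63 ± 0.691 CPM in Utx KO, against 6.50 ± 0.897 CPM in WT (limma adjusted p = 0.0446). It rests on 16 and 43 reads, lost its call under 13 of 17 alternatives (leaving out any of the 6 libraries included, 0.0532 to 0.156) and overlaps Tsr3 on the opposite strand, which was at 63.0 to 69.5 CPM in Utx KO and 54.4 to 63.5 CPM in WT libraries.

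**Figure D3:**
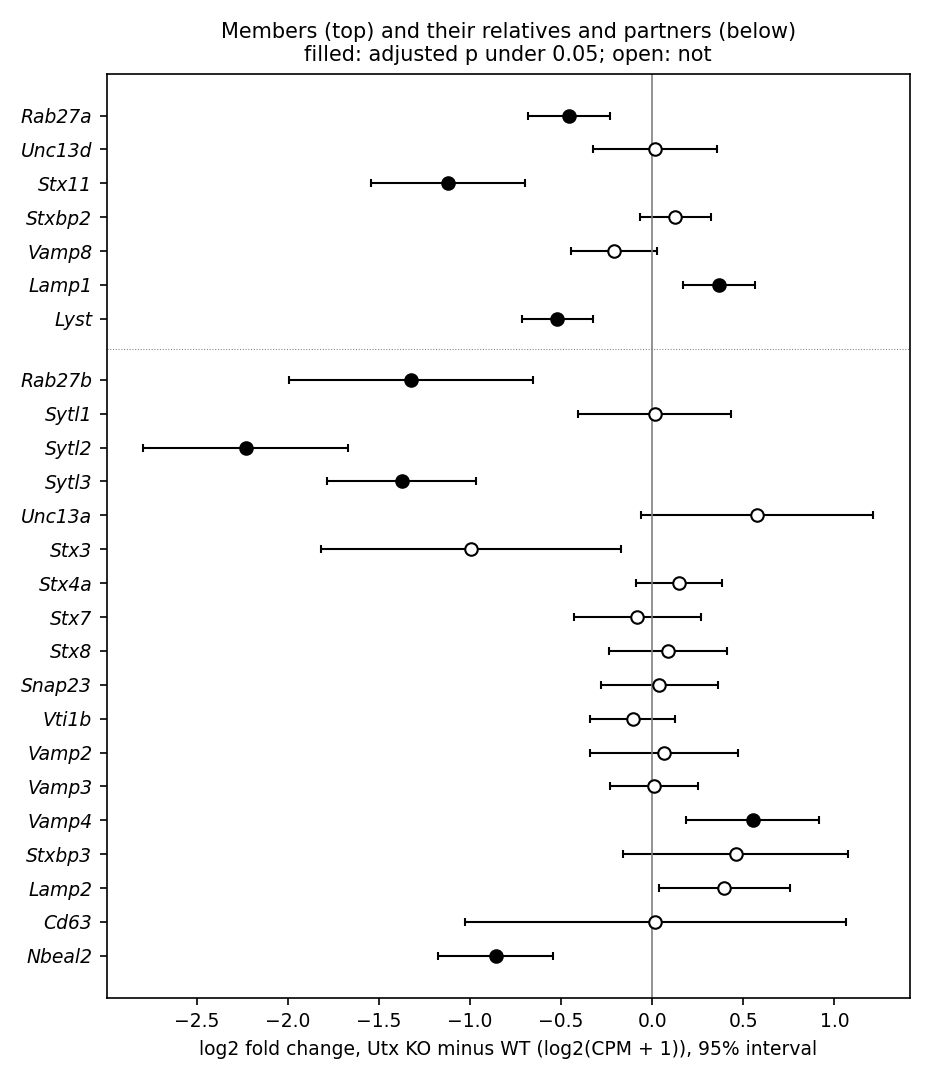
Log2 fold change (x axis, Utx KO minus WT on the log2(CPM + 1) scale) with its 95% limma interval for the 7 members (above the dotted line) and their relatives and partners (below it). Filled points passed an adjusted p of 0.05: Stx11, Lyst and Rab27a lie left of 0 with Rab27b, Sytl2, Sytl3 and Nbeal2, and Lamp1 lies right of 0 with Vamp4.

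Beside Lamp1, 13 lysosome and granule membrane genes were tested, of which 2 were called lower and 0 higher. For comparison, 10.8% of all tested genes were called, 5.51% lower and 5.28% higher. Npc1, which exports cholesterol from lysosomes, was at 34.2, 29.1 and 25.3 CPM in Utx KO, against 56.5, 68.2 and 58.5 CPM in WT replicates 1, 2 and 3. The groups were far apart (difference −1.03 ± 0.14 on the log2 scale, SE; adjusted p = 1.78e-05 with limma) and the call held under all 17 alternatives. Rmc1, on the opposite strand across shared exon positions, was at 5.56 to 7.94 CPM in Utx KO and 6.57 to 13.4 CPM in WT libraries. Laptm5 fell by 0.17 on the log2 scale (limma adjusted p = 0.0239), a call lost when any library but Utx KO replicate 2 was left out (0.0517 to 0.0908). Lamp2, the closest relative of Lamp1, was at 43.7, 48.0 and 39.5 CPM in Utx KO, against 26.9, 28.1 and 47.1 CPM in WT. Its WT replicate 3 lay among the Utx KO values; with all libraries it did not pass (log2 fold change 0.40, limma adjusted p = 0.171), and without that library it did (0.65, adjusted p = 0.0128). Cd63 had 7 reads in all in Utx KO and 6 in WT, and 58.7% of its 3' end pieces recur in the pseudogene Cd63-ps.

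In the remaining lists calls were scattered. Ap3s1, a subunit of the adaptor that sorts proteins to lysosome-related organelles, was the only 1 of 23 tested organelle biogenesis genes called with limma, at 51.4 ± 4.17 CPM in Utx KO and 33.3 ± 2.74 CPM in WT (SD, n = 3; log2 difference 0.61, adjusted p = 0.00357 with limma); DESeq2 ended that call (0.0533). Of the calcium genes, the endoplasmic reticulum sensor Stim2 fell (log2 fold change −0.38, limma adjusted p = 0.0106; lost without WT replicate 2, 0.0622, and with DESeq2, 0.0946) and the plasma membrane channel Orai1 rose (0.48, limma adjusted p = 0.0449; lost under 7 of 17 alternatives, among them without Utx KO replicate 1 or 3 or WT replicate 2 or 3, 0.0556 to 0.211). Among 24 transport and synapse genes, the kinesin heavy chain Kif5b and the myosin heavy chain Myh9 fell by 0.27 and 0.26 on the log2 scale (limma adjusted p = 0.0167 and 0.0162). The call on Kif5b was lost without Utx KO replicate 2 or 3 or WT replicate 1 or 2 (0.0607 to 0.144). That on Myh9, whose groups overlapped, was lost with robust limma (0.0539) and without Utx KO replicate 1 or WT replicate 2 or 3 (0.0753 to 0.0963). None of the 9 exocyst subunits was called with limma; 1 of them had an unadjusted p under 0.05. Across all 148 tested genes of the 11 lists, 15 were called (10.1%) and groups did not overlap for 24.3%, close to the 10.8% and 26.5% over all genes. The calls split into 12 lower (8.11%) and 3 higher (2.03%), against 5.51% lower and 5.28% higher over all genes, and the difference in split was not tested.

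**Figure D4:**
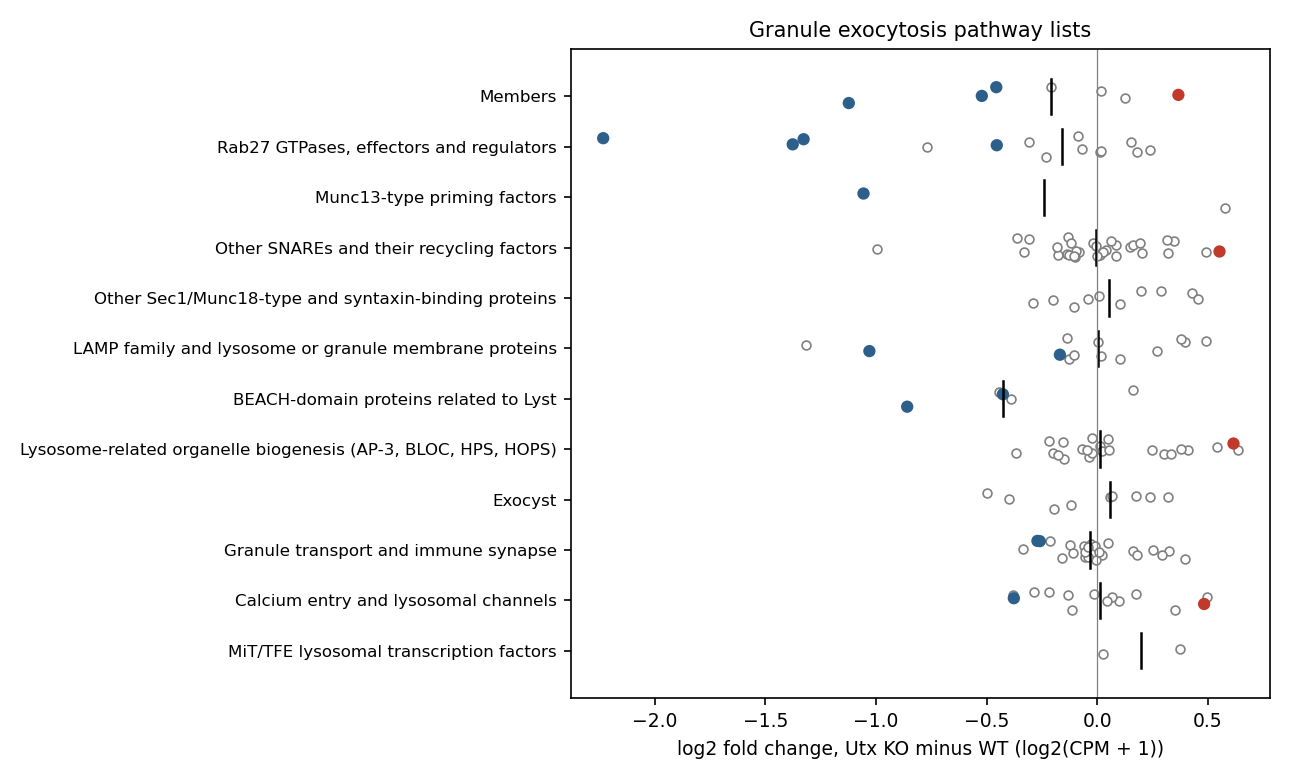
Log2 fold change (x axis, Utx KO minus WT) of each tested gene in the members and the 11 pathway lists (rows); blue points were called lower, red points higher and open points were not called, and black ticks are list medians. The farthest points to the left are Sytl2, Sytl3 and Rab27b in the Rab27 list.

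For each called member, the genes with the nearest library profiles were sought among 7301 genes. Nearness was the mean absolute difference of gene-centred log2(CPM + 1) values over the 6 libraries. The genotype difference was kept in these values, so genes with a similar log2 fold change rank as near. Shared regulation was not tested. Nearest to Stx11 were Adora2a (0.0898) and Adam8 (0.0959), to Lyst Akna (0.0359) and Tmem154 (0.0364), to Rab27a Ripk1 (0.0352) and Rbms1 (0.0383), and to Lamp1 Mettl9 (0.0269) and Asf1a (0.0311). Of these, Mettl9, Asf1a and Tmem154 did not pass the test themselves. Ripk1 passed (limma adjusted p = 0.0406) but lost its call under 7 of 17 alternatives, among them DESeq2 (0.277) and leaving out any library but Utx KO replicate 2 (0.0548 to 0.156). Of the granule cargo, only Prf1 and Gzmb were looked at here: Prf1, which encodes perforin, was at 23.0, 16.6 and 24.7 CPM in Utx KO against 72.0, 78.8 and 73.3 CPM in WT (limma adjusted p = 9.02e-09). Gzmb, which encodes granzyme B, was at 905, 731 and 718 CPM in Utx KO against 1349, 1260 and 1239 CPM in WT (limma adjusted p = 1.79e-08).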

How the data were processed

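The authors deposited 1 table per library with CPM values, which sum to the same total in each library over 25655 Ensembl genes, per the file headers and column totals. Libraries were made from 500 ng of total RNA with a QuantSeq 3' kit, per the labels' protocols. GRCm38 and mm10 are the builds named in the submitters' processing notes. No source used here gives the aligner, counter, strand setting or filters. Dividing by the value of 1 read gave whole reads for 100% of values above 0 (tolerance 0.001 reads). A count of 0 allows up to 3 reads, or 1.19 to 1.85 CPM.

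Symbols were matched for 25600 identifiers. Genotypes were compared by limma-trend (version 3.58.1, R 4.3.3) on log2(CPM + 1) without covariates, after a filter that kept genes reaching 1 CPM in at least 3 libraries. Its p-values are two-sided and adjusted over 10590 genes. Fold changes on this scale understate changes of low genes. Alternatives on recovered reads used edgeR 4.0.16 (quasi-likelihood, TMM), which called 1106 of 8832 genes, DESeq2 1.42.0 and limma-voom. The main fit and some alternatives were also run on simulated counts with the same extra spread for every gene. That run does not give their error rates in these data. The members and lists were chosen with earlier results of these data known, and the 6 motifs after the promoters had been searched. Named genes are the members, the targeted gene, fixed relatives, up to 4 called genes per list and direction, and the 2 nearest profiles per called member among genes with a mean of at least 10 CPM. One of the fixed relatives is not reported here. Tfeb, Tfe3, the Rab-related genes of the closing section and genes named only for overlapping exons were chosen after their values were seen. Positions and exon overlaps are from GENCODE M21 (GRCm38); promoters from RefSeq (GRCm38.p6) covered 6 of the 8 members, leaving Unc13d and Vamp7. Of the last 300 nt of each measured member's coding transcripts, 50-nt pieces recurred in other genes only for Stxbp2 (7.29%).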

Additional observations from a re-analysis of the deposited data

How the results depend on the processing

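Of the 4 called members, Stx11 and Lyst kept their direction and their call under all 17 alternatives, and Rab27a and Lamp1 kept their direction. DESeq2 called 552 genes in place of 1142 (5.27% of 10480 with an adjusted p), 2 members in place of 4 and 7 list genes in place of 15; the cause was not tested. Leaving out 1 library gave 754 to 1042 genes, 3 to 4 members and 6 to 13 list genes; the lowest were without WT replicate 2 (754 genes, 6 list genes), and list genes also fell by over 1.5 times without WT replicate 3 (8) and Utx KO replicate 3 (9). The sign turned for genes near 0 that were not called. For Unc13d the log2 difference was −0.0175 with DESeq2, −0.0176 with edgeR without filter and −0.00971 with edgeR; for Cd63 it was −0.50 with a pseudocount of 0.1. Leaving out 1 library gave −0.19 to 0.18 for Unc13d, −0.065 to 0.0643 for Sytl1, −0.0148 to 0.18 for Stx8, −0.0503 to 0.18 for Snap23, −0.0294 to 0.18 for Vamp2, −0.0289 to 0.0643 for Vamp3 and −0.37 to 0.49 for Cd63. With the replicate number as a block, 1065 genes, 4 members and 13 list genes were called. Same-numbered libraries did not deviate together (r of −0.00963 to 0.00602 over genes), so the numbers were not taken as pairs. TMM-scaled CPM called 1132 genes and the same number of members. Depth limits genes such as Stx3, Baiap3, Cd63, Sytl2 and Rab27b, with under 50 reads in at least 1 group.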

Other observations

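The wider family of Rab GTPases, taken by symbol after the values of Rab27a were known, gave 4 falls and 1 rise among 40 tested genes. These 5 calls are 12.5% of the family, near the 10.8% of all tested genes called, so the count shows nothing particular to it. Beside Rab27a and Rab27b, the falls were Rab8b, a regulator of transport to the plasma membrane, and Rab37. Rab8b was at 70.7, 77.7 and 74.7 CPM in Utx KO, against 112, 114 and 114 CPM in WT replicates 1, 2 and 3 (log2 fold change −0.60, SE 0.09, limma adjusted p = 7.85e-05), and its call held under all 17 alternatives. Rab37 was at 8.61 ± 1.10 CPM in Utx KO and 15.3 ± 1.66 CPM in WT (SD, n = 3; limma adjusted p = 0.0396), a call lost under 8 alternatives, among them leaving out any library but Utx KO replicate 3 (0.0602 to 0.160). The rise was Rab6b, a Golgi Rab, at 11.1, 11.4 and 14.8 CPM in Utx KO, against 5.93, 4.15 and 2.74 CPM in WT (log2 fold change 1.39, limma adjusted p = 0.00273), which held under all 17 alternatives.

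Of the genes that switch Rab proteins on or off, 12 DENND-type exchange factors gave 1 rise and 26 TBC1D-type GTPase-activating proteins gave 2 rises and 2 falls. The shares called, 8.33% and 15.4%, again lie near that of all genes. Dennd5a rose to 49.8 ± 4.59 CPM in Utx KO, against 29.4 ± 3.39 CPM in WT (SD, n = 3; log2 difference 0.74, adjusted p = 0.000939 with limma), and held under all 17 alternatives. The 4 TBC1D calls, Tbc1d17 and Tbc1d24 (higher) and Tbc1d14 and Tbc1d30 (lower), had adjusted p-values from 0.0339 to 0.0491 with limma, and each was lost under 7 or more alternatives, 4 or 5 of which left out 1 library (0.0594 to 0.234). Of 17 synaptotagmins listed, 1 passed the filter on low values, Syt11, and it was not called.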
